A study of Mus musculus with 58 samples.

Results

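The livers of Muta™Mouse males given the lower doses of indeno(123,cd)pyrene (IP), which were 12.5 mg/kg-bw/day and 25 mg/kg-bw/day, were compared with the livers of vehicle mice. IP is a polycyclic aromatic hydrocarbon, and Muta™Mouse is a transgenic line that carries a bacterial lacZ reporter used to score mutations. The comparison holds the liver arrays labelled with either lower dose, 10 mice pooled as 1 group, and those labelled as vehicle control, 4 mice, which are 14 of the 58 arrays of the series. All mice were about 13 weeks old and received olive oil by gavage on 28 consecutive days, the vehicle mice alone (mice 1, 2, 3 and 5) and the exposed mice with IP dissolved in it (mice 6 to 10 at 12.5 and mice 11 to 15 at 25 mg/kg-bw/day). Liver was taken 72 h after the last dose, and RNA of a random section of each frozen liver, carrying Cy5, shared an array with a Cy3-labelled reference RNA from 11 mouse cell lines. A log2 ratio is therefore the level of a probe in liver relative to that reference, and a log2 difference is the mean log2 ratio of the lower doses minus that of the vehicle mice. The mice at 50 mg/kg-bw/day (5 livers) entered the fit as a group of their own.

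Polycyclic aromatic hydrocarbons bind the aryl hydrocarbon receptor (AhR), a transcription factor that pairs with Arnt and switches on Cyp1a1, Cyp1a2, Cyp1b1 and its own repressor Ahrr. The Cyp1 enzymes oxidize the hydrocarbon itself, and liver is known for its high Cyp1a2. Interferons act on nearly every cell type through Stat2, Irf9 and their partners, which raise a common set of antiviral genes, and Irf7 in turn amplifies interferon production. Kupffer cells, the resident macrophages of liver, and the sinusoidal endothelium make up much of the tissue beside the hepatocytes.

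The tissue label was borne out by the markers: 12 of 12 hepatocyte marker genes were well above background on all 14 arrays. Of the 19 liver arrays, 5 stood apart, with more than 50% of the probes well above background in Cy5. In the lower doses these were mice 9, 13 and 15, at 66.6% to 77.5% of the probes, whereas the other 7 lower-dose arrays lay between 38.2% and 45.0% and the 4 vehicle arrays between 37.6% and 41.7%. Values without the 5 arrays stand beside the leading genes and lists below. The arrays lay on 3 slides that each held all groups, but all vehicle arrays lay in array column 1. All but 2 of the lower-dose arrays lay in column 2 (12.5 mg/kg-bw/day) or 3 (25 mg/kg-bw/day). The exceptions were mouse 9, which shared column 1 with the vehicle arrays, and mouse 14 in column 2. Dose and column can therefore hardly be told apart. Between arrays the Pearson correlation of log2 ratios across probes was 0.890 to 0.982, and 0.961 to 0.982 without the arrays that stood apart.

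**Figure D1:**
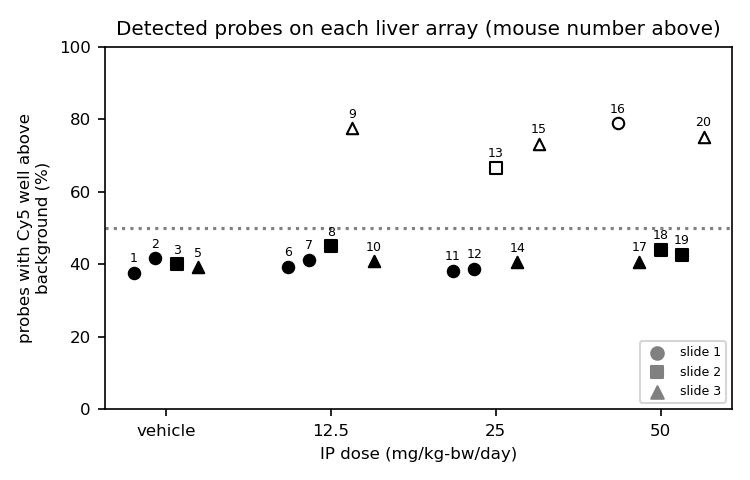
Percent of probes whose Cy5 signal was well above background (vertical axis) on each liver array by IP dose (horizontal axis, mg/kg-bw/day), with mouse numbers above the points and slides as symbols. The open symbols above the dotted line at 50% are mice 9, 13 and 15 of the lower doses and mice 16 and 20 at 50 mg/kg-bw/day, and the vehicle mice lay between 37.6% and 41.7%.

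No probe differed between the lower doses and vehicle at an adjusted p of 0.05 and a fold of 1.5 (0 of 55681 probes, 0%; limma's moderated test with Benjamini-Hochberg adjustment, smallest adjusted p 0.951). At an unadjusted p under 0.05, 2188 probes (3.93%) differed, 924 higher and 1264 lower in the lower doses. With a 1.2-fold limit added, 1120 remained (2.01%), 290 higher and 830 lower, a split that turned to 2633 higher and 361 lower when each array was set to a median of 0 without loess. Among the 12266 named genes above background on at least 50% of the arrays of a group, the median standard error of the log2 difference was 0.14, and the 95% interval reached 1.22-fold to either side of the estimate in the median gene and stayed within 1.5-fold in 93.5%. The genes below are therefore described by their values, with p values that did not survive the adjustment; all had an adjusted p of 0.951 or above. Over 20018 named genes, each by its brightest probe, 377 (1.88%) were higher and 480 (2.4%) lower at an unadjusted p under 0.05, and the median log2 difference was −0.01.

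Among the 12 AhR genes of the liver, 7 had a higher and 5 a lower mean in the lower doses, against 47.7% and 52.3% of all named genes, with a median log2 difference of 0.01 and a range of −0.38 to 0.21. These figures include Cyp1a1, Cyp1b1 and Ahrr, which were below background in every vehicle liver. The exact permutation test over all 1001 splits of the 14 mice (two-sided, 12 tests, unadjusted) gave a p below 0.05 for Aldh3a1 and Tiparp, and none was called in the fit across all probes. The promoter windows of the inducible gene Cyp1a1 and of Ahrr are printed because they hold the core dioxin response element GCGTG (capitals) to which AhR and Arnt bind. They are 300 bases around the start of transcription, from RefSeq (GRCm38.p6), at chr9:57697363-57697662 on the plus strand and chr13:74292282-74292581 on the minus strand.
Cyp1a1: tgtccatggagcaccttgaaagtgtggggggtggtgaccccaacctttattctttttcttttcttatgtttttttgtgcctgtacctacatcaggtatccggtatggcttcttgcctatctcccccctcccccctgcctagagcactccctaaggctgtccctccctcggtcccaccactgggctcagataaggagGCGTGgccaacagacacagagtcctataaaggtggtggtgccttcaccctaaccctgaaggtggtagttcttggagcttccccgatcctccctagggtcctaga
Ahrr: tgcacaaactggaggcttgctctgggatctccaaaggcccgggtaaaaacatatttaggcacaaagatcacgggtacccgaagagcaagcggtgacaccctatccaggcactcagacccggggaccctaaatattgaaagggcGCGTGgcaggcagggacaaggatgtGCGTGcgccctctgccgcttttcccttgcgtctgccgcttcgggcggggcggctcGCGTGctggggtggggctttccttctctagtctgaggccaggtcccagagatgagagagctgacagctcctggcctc
On either strand, GCGTG stood in 6 of the 9 windows matched to AhR genes (66.7%) and in 32.4% of all 32851 windows.

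Cyp1a1, the classical AhR target, was not well above background on any of the 14 liver arrays, so that no fold is given. In lung, where the vehicle group also holds mouse 4, which has no liver array here, its log2 difference was 1.40 (adjusted p of the difference between liver and lung 0.9995, limma). Cyp1b1 and Ahrr were below background on all 4 vehicle arrays and above it on 6 and 3 of the 10 lower-dose arrays, and no fold is given for either. The lower-dose arrays include the 3 that stood apart, with 66.6% to 77.5% of all probes above background, against at most 41.7% on a vehicle array. The part of this in the 2 counts was not tested. In lung the log2 differences of Cyp1b1 and Ahrr were 1.29 and 1.1. Cyp1a2, the AhR-responsive enzyme that hepatocytes hold at a high level, lay at log2 ratios of 6.79, 6.58, 5.73 and 6.46 in the vehicle mice and from 5.49 to 6.6 with a median of 6.31 in the lower doses. These ranges overlapped almost wholly (log2 difference −0.16 ± 0.21 SE, exact p = 0.518; −0.38 without vehicle mouse 3 and −0.023 without vehicle mouse 1), and the sign turned to 0.20 with Cy5 alone and with median-centred arrays, a scaling that put the median of all named genes at 0.17. Aldh3a1, an aldehyde dehydrogenase, lay at −0.42, −1.14, −0.89 and −0.64 in the vehicle mice and between −1.52 and −0.89 with a median of −1.13 in the lower doses. Vehicle mice 1 and 5 were above every lower-dose mouse, mouse 3 was level with the highest of them and mouse 2 lay among them (log2 difference −0.38 ± 0.14 SE, exact p = 0.020). The other probe of Aldh3a1 differed by −0.12. Tiparp, a mono-ADP-ribosyltransferase that dampens AhR, differed by 0.21 ± 0.11 SE (exact p = 0.039; unadjusted p = 0.0723 in limma's moderated test). Nqo1, a quinone reductase, Ugdh, which makes the sugar donor of glucuronidation, and Ugt1a6a, which transfers it, differed by 0.11, 0.13 and −0.09, and Ahr and Arnt, the receptor and its partner, by −0.20 and 0.03. The other probe of Arnt differed by −0.36.

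Interferon-stimulated genes were mostly lower in the livers of both lower doses. Of 30 measured genes 26 had a lower mean, the median log2 difference was −0.24 against −0.01 over all named genes, and 5 were lower and 0 higher at an unadjusted p under 0.05, against 2.4% and 1.88% of all named genes. A lower mean was found for 52.3% of all named genes and a higher one for 47.7%. Irf7 and Oasl1, an antiviral protein that restrains Irf7, had the largest differences, at 0.510-fold and 0.499-fold the vehicle level.

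Irf7 lay at log2 ratios of 0.95, 0.97, 0.19 and 0.26 in the 4 vehicle mice and between −0.99 and 0.18 with a median of −0.30 in the lower doses. Vehicle mice 1 and 2 were the highest, and the groups did not overlap, although the lowest vehicle mouse and the highest lower-dose mouse (mouse 9, on an array that stood apart) differed by little. Groups that did not overlap were found in the lower direction for 36 of 20018 named genes (0.18%). The log2 difference was −0.97 ± 0.21 SE (unadjusted p = 0.000164, limma) and −1.08 without the 5 arrays, and it was −1.30, −0.88 and −0.52 within slides 1, 2 and 3. By dose it was −0.87 at 12.5, −1.08 at 25 and −1.13 at 50 mg/kg-bw/day, the same vehicle mice serving in each. In lung and forestomach the log2 difference of Irf7 was 0.02 and 0.07.

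Oasl1 lay at −0.08, −0.05, −0.37 and −0.04 in the vehicle mice and between −2.27 and 0.13 with a median of −1.22 in the lower doses. Mouse 9 lay above all vehicle mice, and the other lower-dose mice lay below them (log2 difference −1.003 ± 0.30 SE, unadjusted p = 0.00353, limma). Oas2, which makes the 2'-5' oligoadenylates that activate RNase L, differed by −0.36 ± 0.14 SE and Irgm1, an interferon-induced GTPase, by −0.31 ± 0.14 SE. The RNA sensor Ddx58, which was chosen after its values were seen, differed by −0.23 ± 0.10 SE. For Irgm1, vehicle mouse 2 lay highest at 2.33, and the difference was −0.14 without that mouse and −0.70, 0.09 and −0.09 within the slides.

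**Figure D2:**
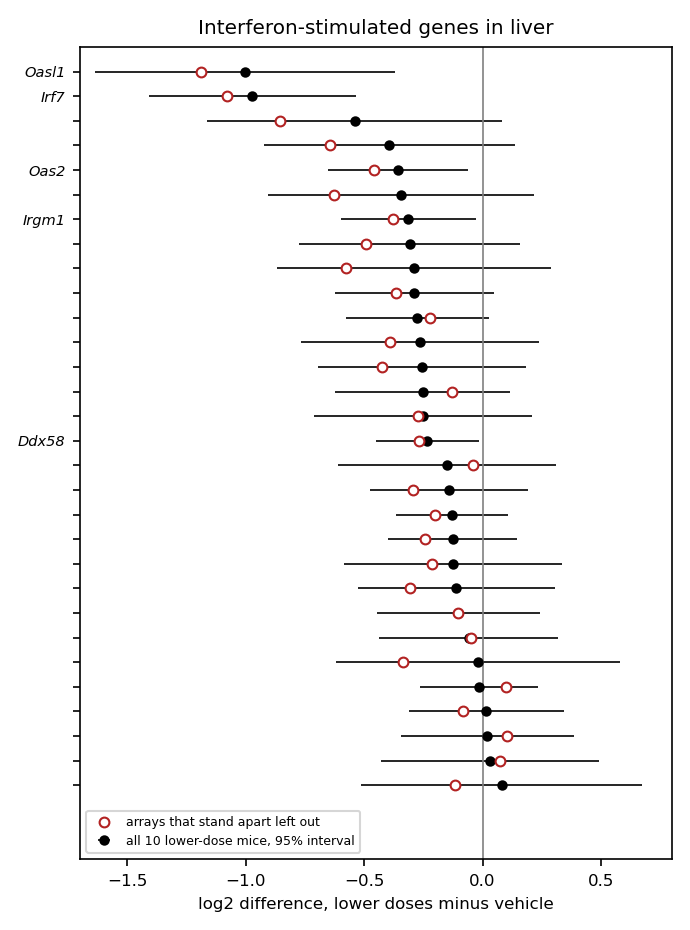
Log2 difference of the lower doses minus vehicle (horizontal axis) for each of the 30 measured interferon-stimulated genes (vertical axis, in order of the difference, with the genes named in the text labelled), with 95% intervals from limma as bars and values without the arrays that stood apart as open red points. Irf7 (−0.97) and Oasl1 (−1.003) lay farthest from 0, and 26 of the 30 genes lay below it.

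With all 14 mice the interferon list had the lowest median of the 34 lists examined, and its size moved with single mice and slides. Without the 5 arrays that stood apart the median was −0.28 (and that of the heat shock list, −0.30, was lower), and 17 of the 30 genes were lower and 0 higher at an unadjusted p under 0.05, against 4.51% and 3.45% of all named genes. Leaving out 1 mouse at a time moved the median between −0.26 and −0.13, the latter without vehicle mouse 2. Within slides 1, 2 and 3 the median was −0.39, −0.01 and −0.13, and 27, 16 and 24 of the 30 genes were lower. The mean log2 ratio over the list lay between −0.18 and 0.20 in the vehicle mice. In the lower doses it lay between −0.55 and 0.12, with a median of −0.25, so that the groups overlapped. The highest lower-dose value was that of mouse 9, whose array lay in the column of the vehicle arrays. With median-centred arrays the list median was 0.11, below the 0.17 at which this scaling put the median of all named genes (0.30 for those above background). The median was −0.19 at 12.5, −0.23 at 25 and −0.16 at 50 mg/kg-bw/day, and 0.05 in lung and 0.04 in forestomach of the lower-dose mice. No member of the list passed the test of a difference between liver and lung or between liver and forestomach (smallest adjusted p 0.9995 and 0.976, limma).

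Many interferon-stimulated genes carry the interferon-stimulated response element, searched here as GAAA, any 2 bases and GAAA again on both strands in the same RefSeq windows, a motif chosen after the values were seen. It stood in 15 of 23 matched windows of the list (65.2%) and in 3.44% of all 32851 windows. Irgm1 and Irf7 are shown because the former holds 2 overlapping matches (capitals) and the latter, with the smallest p of the list, none in this window; they lie at chr11:48871371-48871670 and chr7:141266375-141266674, both on the minus strand (GRCm38.p6).
Irgm1: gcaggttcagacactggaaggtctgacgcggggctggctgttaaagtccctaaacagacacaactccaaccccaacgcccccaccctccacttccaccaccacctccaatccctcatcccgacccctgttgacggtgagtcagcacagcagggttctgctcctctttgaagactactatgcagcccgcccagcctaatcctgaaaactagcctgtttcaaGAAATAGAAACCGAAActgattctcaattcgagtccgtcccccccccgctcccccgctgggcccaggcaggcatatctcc
Irf7: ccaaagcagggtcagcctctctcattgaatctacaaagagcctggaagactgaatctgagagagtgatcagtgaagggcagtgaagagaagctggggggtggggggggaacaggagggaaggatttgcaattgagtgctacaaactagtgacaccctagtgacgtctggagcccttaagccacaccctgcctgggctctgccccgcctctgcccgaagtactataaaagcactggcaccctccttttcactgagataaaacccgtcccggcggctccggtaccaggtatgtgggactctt

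In RNA of whole tissue, fewer cells of a type and less RNA per cell cannot be told apart. Folr2, the macrophage folate receptor, lay at 3.30, 3.28, 3.05 and 3.41 in the vehicle mice and between 0.51 and 3.05 with a median of 1.41 in the lower doses. The groups did not overlap, although mouse 7 reached the lowest vehicle mouse to within 2 decimals, and the lower-dose mice spread widely (SD 1.00 against 0.15 in the vehicle mice). The log2 difference was −1.64 ± 0.50 SE (unadjusted p = 0.00361, limma), −1.43 without the 5 arrays and −1.12, −2.39 and −1.85 within the slides. Clec4f, a Kupffer cell lectin, differed by −0.53 (−0.34 without vehicle mouse 2) and Cd5l, secreted by macrophages, by −0.48 (−0.32 without mouse 15), and without the 5 arrays these values were −0.05 and 0.05. Within the slides Clec4f differed by −0.28, −0.50 and −0.66. Over the 11 Kupffer cell genes the median was −0.11 (0.05 without the 5 arrays; 0.06, −0.54 and −0.08 within the slides), 8 had a lower mean, as did 52.3% of all named genes, and the mean log2 ratio was 3.23 to 3.79 in the vehicle mice and 2.36 to 4.01 in the lower doses.

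Class II antigen presentation genes had higher means. Cd74, the invariant chain, lay at −1.08, −0.71, −0.17 and −1.35 in the vehicle mice and between −0.91 and 0.45 with a median of −0.22 in the lower doses, so that vehicle mouse 3 lay among the exposed mice. Its log2 difference was 0.66 ± 0.22 SE (unadjusted p = 0.00711, limma), with −0.17 within slide 2, which holds vehicle mouse 3, and 0.92 and 1.09 within the others. The class II chains H2-Ab1 and H2-Eb1 differed by 0.46 and 0.41 and the peptide loading chaperone H2-DMa by 0.45; H2 genes are near-identical copies in part, so probes may share signal. Of 16 antigen presentation genes 3 were higher and 0 lower at an unadjusted p under 0.05, against 1.88% and 2.4% of all named genes. Their median was 0.11 (0.03 without the 5 arrays), and within the slides it was 0.07, −0.25 and 0.27, with 13 of 16 genes lower in slide 2. B cell genes were dim: the receptor component Cd79b differed by 0.52 ± 0.21 SE (0.32 without vehicle mouse 2 and 0.05 within slide 2). Fcmr, the receptor for IgM, was below background in all vehicle mice and above it in 9 of 10 lower-dose mice. By the rule for dim groups given under the processing it was 1.44-fold higher, and its log2 difference ran from 0.29 to 1.82 over the alternatives. Over the 8 B cell genes on the array the median was −0.08, and 0.05, −0.13 and −0.19 within the slides. Of these genes 3 had a higher and 5 a lower mean, against 47.7% and 52.3% of all named genes. Only 4 of the 8 were above background on at least 50% of the arrays of a group, so the count includes dim genes. The part of these cell markers in the interferon or class II values was not tested.

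Bile acid genes held both higher and lower means, with Abcc3 1.43-fold higher and Cyp7a1 lower by 1.49 on the log2 scale. Abcc3, which exports bile acids and glucuronides to the blood, lay at 2.67, 2.83, 2.85 and 2.77 in the vehicle mice and between 2.93 and 3.64 with a median of 3.30 in the lower doses. Every lower-dose mouse was above every vehicle mouse, as for 18 of 20018 named genes in the higher direction (0.0899%). The log2 difference was 0.51 ± 0.11 SE (1.43-fold, unadjusted p = 0.000192, limma), 0.49 without the 5 arrays, and 0.47, 0.49 and 0.57 within the slides. It was 0.36 at 12.5, 0.67 at 25 and 0.55 at 50 mg/kg-bw/day, and −0.11 in lung and −0.09 in forestomach. Cyp7a1, the rate-limiting enzyme of bile acid synthesis, lay at 5.15, 5.96, 3.60 and 4.91 in the vehicle mice and between 1.93 and 6.26 with a median of 3.30 in the lower doses, where mouse 7 lay far above the rest. Its log2 difference was −1.49 ± 0.69 SE (−1.20 without the 5 arrays), and that of Cyp8b1, which makes cholic acid, −0.66 ± 0.43 SE. The 21 genes of bile acid synthesis and transport had a median of −0.09, and the 20 genes of the xenobiotic receptors CAR and PXR, which also include Abcc3, a median of −0.01. Without the 5 arrays these medians were 0.04 and 0.16. At an unadjusted p under 0.05 (limma), 5 and 4 genes were then higher, against 3.45% of all named genes. In both lists 0 were lower, against 4.51%.

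Fatty acid hydroxylases of the Cyp4a family, targets of the lipid sensor PPAR-alpha, had higher means. Cyp4a31 differed by 0.78 ± 0.31 SE (1.18 without vehicle mouse 2), Cyp4a10 by 0.65 ± 0.30 SE (0.36 without vehicle mouse 3) and Cyp4a14 by 0.89 ± 0.51 SE. Within the slides Cyp4a14 differed by 1.63, −0.29 and 1.00. The vehicle values of Cyp4a31 were 5.50, 7.17, 5.28 and 6.00, and the lower doses ranged from 5.67 to 7.68 with a median of 6.80, so that vehicle mouse 2 was among the highest. The 3 probes of Cyp4a31 ranged from −0.08 to 0.78, and Cyp4a genes are close copies whose signals may mix. Over the 28 PPAR-alpha targets the median was 0.04, with 2 higher and 0 lower at an unadjusted p under 0.05, against 1.88% and 2.4% of all named genes. Cyp2e1, which oxidizes ethanol and acetone, lay at 7.41, 8.17, 6.84 and 7.62 in the vehicle mice and between 7.23 and 9.42 with a median of 8.97 in the lower doses (log2 difference 1.18 ± 0.39 SE, and 1.24 without the 5 arrays). Its other probe differed by 0.04. Cholesterol synthesis genes had a median of −0.08, which was 0.00 at 12.5 and −0.23 at 25 mg/kg-bw/day. At these doses Mvd, which forms the isoprenoid building block, differed by −0.07 and −0.93, and Sqle, the squalene epoxidase, by −0.13 and −0.55. Without the 5 arrays the pooled list median was −0.04. Mice 13 and 15, on arrays that stood apart, had list means of 2.23 and 2.11, against 2.25 to 2.68 in the others of their dose. Their part in the values by dose was not tested. By slide the list median was 0.11, −0.40 and −0.18, with 17 of 24 genes higher in slide 1. In slides 2 and 3, 23 and 18 genes were lower.

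**Figure D3:**
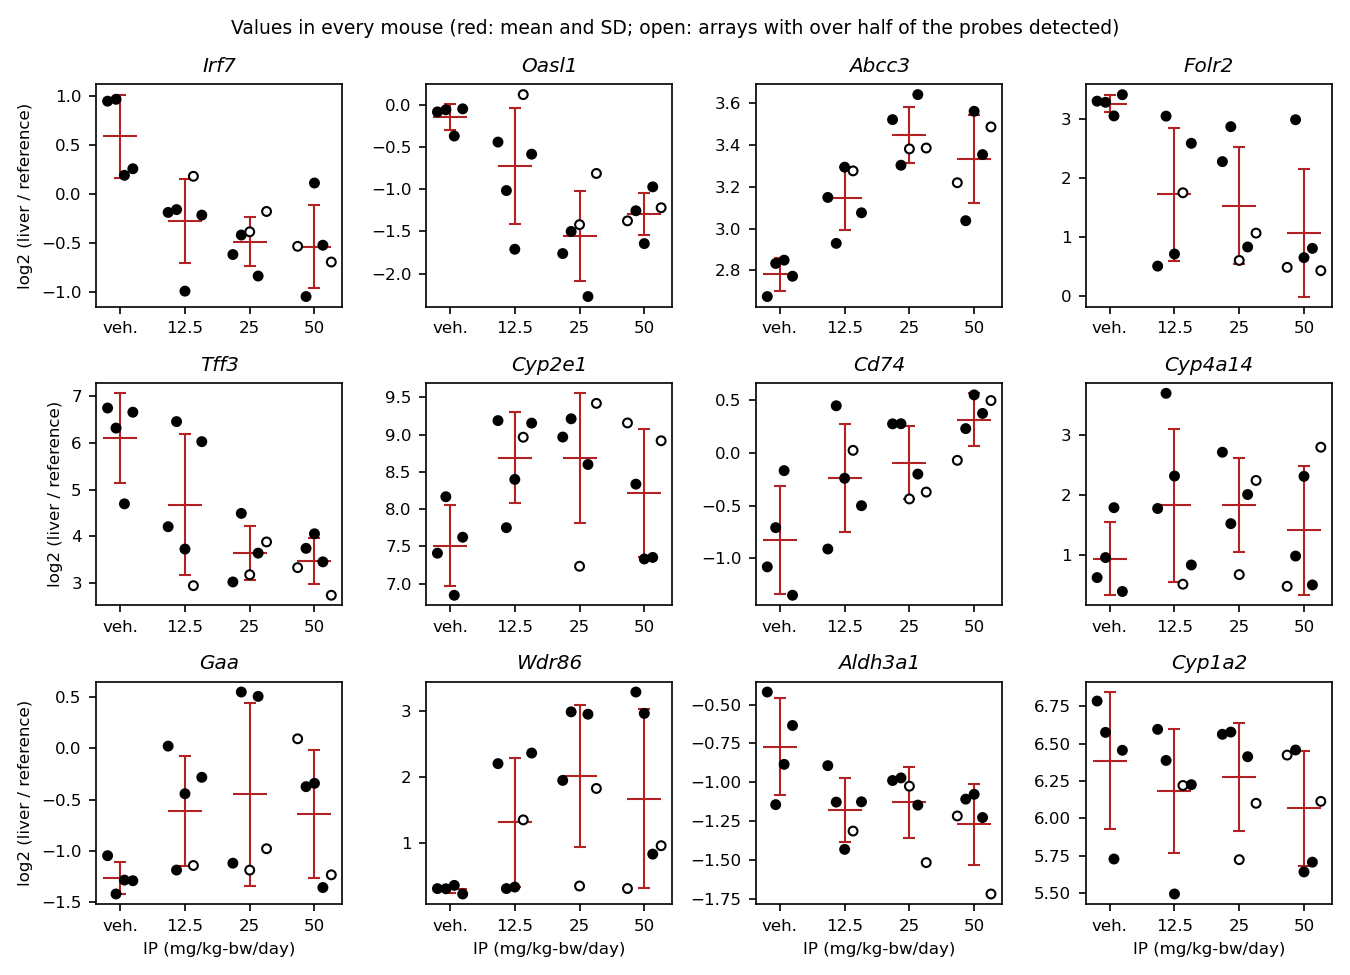
Log2 ratio to the reference RNA (vertical axes) of 12 genes in every liver by IP dose (horizontal axes, mg/kg-bw/day), with group means and SD in red and arrays that stood apart as open circles. The vehicle mice of Abcc3 (2.67 to 2.85) lay below all lower-dose mice (2.93 to 3.64), those of Irf7 and Folr2 bordered on the highest lower-dose mouse, and those of Cyp1a2 (5.73 to 6.79) lay among them; the 50 mg/kg-bw/day group was not part of the comparison.

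The remaining genes with the smallest p values among those at least 1.5-fold higher were of mixed function. Of 30 such genes above background, 13 had an unadjusted p under 0.05 (limma). Of all named genes by their brightest probe, 1.88% were higher at this p. The 30 were picked by the size of their difference and by their probe with the smallest p. Their count can therefore not be set against that share. C3, the central complement component, differed by 0.72 ± 0.25 SE, the endothelial transcription factor Sox18 by 0.62 ± 0.24 SE and the epithelial keratin Krt23 by 0.97 ± 0.39 SE. Hbb-b2, a beta globin with a near-identical copy, differed by 0.78 ± 0.27 SE, by 0.50 without vehicle mouse 5 and by −0.13 with the scanner software's log ratio. Unc5a, a netrin receptor, differed by 0.65 ± 0.21 SE, and Cdc42ep1, an effector of the GTPase Cdc42, by 0.72 ± 0.31 SE. Wdr86 was not above background in any of the 4 vehicle mice (0.30, 0.30, 0.35 and 0.22) and was above it in 8 of 10 lower-dose mice, which ranged from 0.31 to 2.99 with a median of 1.89. By the rule for dim groups it was 2.51-fold higher, its log2 difference ran from 0.91 to 2.36 over the alternatives, and mice 7, 8 and 13 lay within the vehicle range.

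Lower values of at least 1.5-fold were held by 71 genes above background, 36 of them at an unadjusted p under 0.05 (limma). Of all named genes by their brightest probe, 2.4% were lower at this p. The 71 were likewise picked by their difference and their probe with the smallest p, so the count cannot be set against that share. Tff3, a trefoil peptide of mucous epithelia, lay at 6.74, 6.31, 4.69 and 6.65 in the vehicle mice and between 2.95 and 6.45 with a median of 3.80 in the lower doses. Mice 7 and 10 lay within the vehicle range and the others below it (log2 difference −1.94 ± 0.55 SE, −1.59 without the 5 arrays, 0.260-fold, unadjusted p = 0.00204, limma). The value was −1.43 at 12.5, −2.46 at 25 and −2.63 at 50 mg/kg-bw/day, while the 12 bile duct cell genes, among which it was listed, had a median of −0.01. The lysosomal sulfatase Arsg differed by −0.59 ± 0.17 SE, the protease Capn8 by −1.01 ± 0.32 SE, Spsb1, an adaptor of ubiquitin ligases, by −0.69 (−0.46 without vehicle mouse 2), Dbil5 by −0.60, Fam13c by −0.70 and Tcim by −0.59. Psph, the last enzyme of serine synthesis, lay at −0.33, −1.87, −1.87 and −1.64 in the vehicle mice and between −2.28 and −1.96 in the lower doses. The groups did not overlap, and the log2 difference of −0.66 ± 0.20 SE was −0.30 without vehicle mouse 1, while the other probe of Psph differed by −0.15. Without vehicle mouse 5 the difference of Dbil5 was −0.26, and without vehicle mouse 3 that of Tcim was −0.34. The smallest p of all probes was that of the amino acid transporter Slc1a5, chosen after its values were seen, which was lower by 0.42 on the log2 scale (unadjusted p = 2.5e-05, limma), with vehicle mice between −2.50 and −2.27 and lower doses between −2.99 and −2.66.

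Chaperone, male-biased and cell cycle lists also had medians below 0. Heat shock chaperones had a median of −0.21, with 11 of 13 lower and 3 of them at an unadjusted p under 0.05, against 52.3% and 2.4% of all named genes. Within slides 1, 2 and 3 the median was −0.42, 0.06 and 0.002. The list was lower in the other tissues too, with medians of −0.40 in lung and −0.41 in forestomach of the lower doses. Hspa1a, the inducible Hsp70, lay at 0.90, 3.81, 0.38 and 0.61 in the vehicle mice and between −0.43 and 1.39 in the lower doses, and without vehicle mouse 2 its log2 difference of −0.98 was −0.19 and the list median −0.02. In lung, mouse 2 was likewise the highest of the vehicle mice for Hspa1a (3.58). All 10 male-biased genes had lower means, with a median of −0.20 that was −0.07 without the 5 arrays; Moxd1, a copper monooxygenase homolog measured in 3 of the 4 vehicle mice, had the largest difference (−1.93 ± 0.85 SE). Of the 31 cell cycle genes 23 had a lower mean, with a median of −0.11 (−0.02, −0.13 and −0.22 within the slides, and 0.01 at 50 mg/kg-bw/day). Regardless of direction, 23 of the 31 were above background on at least 50% of the arrays of a group, so the count includes dim genes. Ccne1, Plk1 and Ccnb2 were lower by 0.31, 0.21 and 0.18 at an unadjusted p under 0.05. With median-centred arrays these 3 genes lay at 0.07, 0.13 and 0.16, below the 0.17 at which this scaling put the median of all named genes. Among 27 p53 targets the median was −0.05, and the death receptor Fas differed by 0.25 ± 0.10 SE (0.15 without vehicle mouse 1). The acute phase (27 genes), NRF2 (20 genes) and conjugating enzyme lists (31 genes) had medians of 0.05, −0.01 and −0.09. Without the 5 arrays these medians were 0.15, −0.02 and 0.05.

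**Figure D4:**
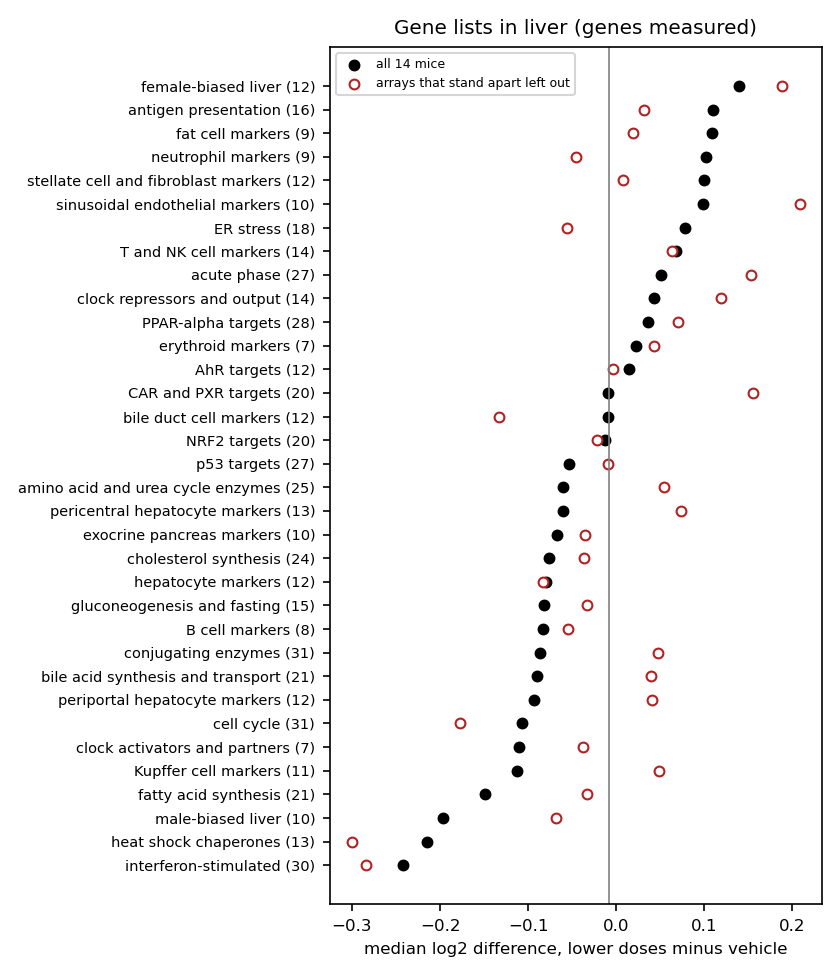
Median log2 difference of the lower doses minus vehicle (horizontal axis) of each gene list (vertical axis, number of measured genes in brackets) with all 14 mice (black) and without the arrays that stood apart (open red). The grey line is the median of all named genes (−0.01), and the interferon-stimulated list lay lowest (−0.24) while the heat shock list was next (−0.21).

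Taken 1 dose at a time, neither lower dose had a called probe (0 of 55681 each, 0%). At 12.5 mg/kg-bw/day 1439 probes (2.58%) and at 25 mg/kg-bw/day 2463 (4.42%) had an unadjusted p under 0.05, of which 815 (1.46%) and 1689 (3.03%) also passed 1.2-fold, and the smallest adjusted p was 0.9999 and 0.391 (limma). The direct comparison of 25 with 12.5 mg/kg-bw/day also had 0 called probes (0%), with 1408 (2.53%) at an unadjusted p under 0.05 and 657 (1.18%) with 1.2-fold added. Since both doses were set against the same 4 vehicle mice, the values stand side by side only. The difference from vehicle was −0.59 at 12.5 and −1.42 at 25 mg/kg-bw/day for Oasl1, −0.84 and −2.13 for Cyp7a1 and −1.54 and −1.73 for Folr2.

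The difference between lower doses and vehicle in liver was also tested against that in forestomach of the same 14 mice and that in lung of these mice and vehicle mouse 4. No probe passed an adjusted p of 0.05 for liver against lung (0%, smallest adjusted p 0.0553) or liver against forestomach (0%, smallest adjusted p 0.493; limma), with 2412 and 2526 probes at an unadjusted p under 0.05. With the mouse as a random block, 1 unnamed probe passed for liver against lung, and without the 5 arrays Clec9a, a dendritic cell receptor, and Adprh, an ADP-ribosylarginine hydrolase. Both were named after their values were seen, and Clec9a differed by 0.22 in liver and −0.56 in lung, and Adprh by −0.35 and 0.30.

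Gaa, the lysosomal enzyme that breaks down glycogen, was measured in liver and lung of the same mice. In liver its log2 ratio was −1.05, −1.42, −1.28 and −1.29 in vehicle mice 1, 2, 3 and 5, and in lung of these mice −0.17, −1.61, −1.33 and −1.75. At 12.5 mg/kg-bw/day mice 6 to 10 lay at 0.02, −1.19, −0.44, −1.14 and −0.28 in liver and at −0.38, −1.33, −0.40, −1.80 and −0.35 in lung. At 25 mg/kg-bw/day mice 11 to 15 lay at −1.12, 0.55, −1.19, 0.51 and −0.98 in liver and at −1.39, 0.01, −1.39, 0.39 and −1.66 in lung. Mouse 1 was the exception, low in liver and high in lung, and the vehicle and lower-dose mice overlapped in both tissues. The log2 difference of this probe was 0.73 ± 0.33 SE in liver (unadjusted p = 0.0381, limma) and 0.46 in lung, and the other probe of Gaa differed by −0.25 in liver. Unc5a ranged from −0.05 to 2.83 in lung of the 10 lower-dose mice and from 0.76 to 1.89 in their livers. No correlation is given, since the values fell into separate clusters.

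**Figure D5:**
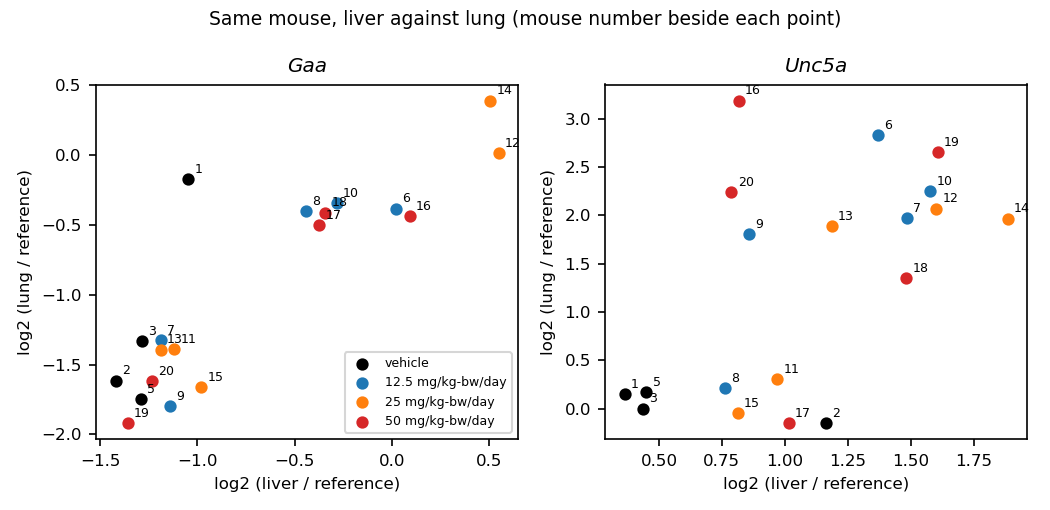
Log2 ratio to the reference RNA in liver (horizontal axes) and lung (vertical axes) of the same mouse for Gaa and Unc5a, coloured by IP dose (mg/kg-bw/day) with mouse numbers. For Gaa, mice 12 and 14 lay highest in both tissues (0.55 and 0.01, 0.51 and 0.39), and vehicle mouse 1 lay low in liver (−1.05) and high in lung (−0.17).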

How the data were processed

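The arrays were 2-colour Agilent SurePrint G3 mouse arrays, and the deposited scanner files give Cy5 and Cy3 median intensities per spot together with the log10 ratio of the scanner software, as the authors obtained them with Feature Extraction (version 11.0.1.1 for liver and 10.7.3.1 for lung and forestomach, array build mm9). The authors' deposited log2 table was not used for liver, since its probe names are displaced there. Median intensities without background subtraction were turned into log2 ratios of Cy5 to Cy3 and normalized by loess within each array (limma 3.58.1, R 4.3.3), with control and outlier spots at weight 0. Spots of a probe were averaged, and 55681 probes were tested. The pooled comparison was fitted on the 19 liver arrays with vehicle, lower doses and highest dose as groups, single doses with 4 groups, and tissue differences on all 58 arrays. Probes were called at a Benjamini-Hochberg adjusted p of 0.05 and 1.5-fold (tissue differences with no fold limit). Genes were named through RefSeq identifiers for 26413 probes, 29268 stayed unnamed, and each of 20018 genes is given by its brightest probe. The genes named in the text are, by their probe with the smallest p, the 12 with the smallest p among those above background and at least 1.5-fold higher and the 12 among those lower, all AhR genes, and from each other list up to 4 genes with the smallest p on their brightest probe; others are said to be chosen after their values were seen, and some genes are not reported here. A fold against a dim group uses the higher of the array's lowest signal well above background and the probe's own, and is an estimate for these arrays. The number of arrays limits the precision. The members and gene lists were chosen with earlier results of these data known. The fit was tested on simulated data. Alternatives covered background correction, normalization, the scanner software's ratio, Cy5 alone, dim probes, slide and mouse as blocks, and each mouse left out. The mouse numbers are those of the labels and were taken to mark the same animals across tissues, which was not tested. The paper gives 4 mice in the IP control group at necropsy, whereas the lung labels hold mouse 4 beside vehicle mice 1, 2, 3 and 5.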

Additional observations from a re-analysis of the deposited data

Results flagged for a closer look

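Of 123 groups of mice tested over the named genes reported here, 11 held a mouse far from the rest of its group by Dixon's criterion, and chance alone gives about 1 group in 20. Among the vehicle mice, mouse 2 lay apart for Hspa1a (log2 ratio 3.81, next 0.90), Unc5a (1.16, next 0.45) and Cd79b (−4.44, next −3.68). Mouse 1 lay apart for Psph (−0.33, next −1.64), mouse 3 for Oasl1 (−0.37, next −0.08) and Tcim (0.26, next −0.67), and mouse 5 for Dbil5 (1.42, next 0.13). Among the lower-dose mice, mouse 9 lay apart for Irgm1 (1.92, next 1.58) and Cyp4a10 (5.45, next 6.37), mouse 7 for Cyp7a1 (6.26, next 4.13) and mouse 10 for Oat, an ornithine aminotransferase (1.63, next 2.27). The array of mouse 9 was among those that stood apart in the share of probes above background. It was also the only lower-dose array in column 1, which held all vehicle arrays. The part of either in its values was not tested.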

How the results depend on the processing

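Called probes numbered 0 in the 4 liver comparisons under every alternative of normalization, filter or left-out mouse. At an unadjusted p under 0.05 and 1.2-fold, a looser rule, 1120 (pooled), 815 (12.5), 1689 (25 mg/kg-bw/day) and 657 (25 against 12.5) probes passed. The smallest adjusted p of the pooled comparison was 0.111 without the 5 arrays that stood apart, an alternative chosen after seeing the data. The mouse as a random replicate block gave 1 probe for liver against lung and 0 for liver against forestomach; the slide as a random block gave 2, leaving out the 5 arrays 2 and leaving out single mice 0 to 2. Median-centred arrays put the median of all named genes at 0.17 (0.30 for those above background), and with this scaling signs turned, in all but Cyp1a2 and Cyp1b1 at values below 0.17, for Cyp1a2 (0.20), Ahr (0.14), Cyp1b1 (0.36), Cyp1a1 (−0.071), Irgm1 (0.020), Ccne1 (0.066), Kif11 (0.13), Plk1 (0.13), Ccnb2 (0.16), Cryab (0.12) and Ddx58 (0.11); with the scanner software's ratio for Hbb-b2 (−0.13), Arnt (−0.050), Cyp1b1 (1.11) and Kif11 (0.44); with Cy5 alone for Psph (0.17), Cyp1a2 (0.20), Cyp1b1 (0.14) and Cyp1a1 (−0.018); and without the 5 arrays for Ugt1a6a (0.046), Cyp1a1 (−0.0072) and Cd5l (0.048). Leaving out single mice moved Arnt between −0.018 and 0.079, Cyp1b1 between −0.14 and 0.064 and Cyp1a1 between −0.062 and 0.090. The causes were not tested. Cyp1a1, Cyp1b1 and Kif11 were dim in liver, so their values describe background.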

Other observations

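Sinusoidal endothelial genes had a median log2 difference of 0.10 in the lower doses, with 7 of 10 genes higher, and of 0.21 without the 5 arrays that stood apart, with 9 of 10 higher. Within the slides the median was 0.21, −0.21 and −0.03. Kdr, the main VEGF receptor of these cells, went the other way on 1 probe, by −0.28 (unadjusted p = 0.0188, limma), while its other probe differed by −0.02. Stellate cell and neutrophil genes each had a median of 0.10, T and NK cell genes of 0.07, and erythroid genes of 0.02. Without the 5 arrays these medians were 0.01, −0.05, 0.06 and 0.04. Pericentral and periportal hepatocyte genes had medians of −0.06 and −0.09, which were 0.07 and 0.04 without the 5 arrays. Oat, a pericentral enzyme, differed by 0.51 (unadjusted p = 0.0219, limma), and by 0.29 without vehicle mouse 5. Without the 5 arrays that stood apart the smallest p was that of Tm4sf4, a tetraspanin relative chosen after its values were seen, with a log2 difference of 0.82 (adjusted p 0.111, limma).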
